A study of Mus musculus with 11 samples.

Results

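The genes described here encode 8 receptors that raise or lower the signal a T cell receives through its antigen receptor: Cd28 and Icos, which costimulate, and Ctla4, Pdcd1, Tigit, Cd96, Lag3 and Havcr2, which mostly inhibit. They were chosen by name, with earlier results of these data known, and all 8 were present among the 10992 genes of the deposited table. Their RNA was measured in regulatory T cells (Tregs), a CD4 lineage set up by the transcription factor Foxp3. Live cells positive for CD3, CD4 and Foxp3 had been sorted from the spleen or the visceral adipose tissue (VAT) of males, 25 weeks of age. Every mouse had Foxp3-YFPcre, a Cre recombinase driven from Foxp3 and so active in Tregs. In KO mice both copies of Srebf2, the gene of the cholesterol-synthesis factor SREBP2, were flanked by loxP sites (Srebf2-flox/flox); WT mice carried Srebf2-WT/WT. The groups held 3 VAT KO, 3 VAT WT, 2 spleen KO (replicates 2 and 3) and 2 spleen WT (replicates 2 and 3) libraries.

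CD28 binds CD80 and CD86 on antigen-presenting cells, and the signal adds to that of the antigen receptor. CTLA-4 binds the same ligands more tightly, and Tregs use it to strip them from the presenting cell. ICOS, a relative of CD28, binds ICOS ligand and supports effector Tregs, including those of tissues. PD-1, the product of Pdcd1, binds PD-L1 and PD-L2 and recruits phosphatases. TIGIT and CD96 bind the poliovirus receptor and related nectins, for which they compete with the activating receptor CD226. LAG-3 binds MHC class II, and TIM-3, the product of Havcr2, has several ligands, among them galectin-9.

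Cd28, Ctla4 and Icos lie side by side on chromosome 1 (GRCm38.p6, the mm10 build), with Ctla4 at 60909025 to 60915832, 135.7 kb beyond the end of Cd28 and 44.9 kb before Icos. Pdcd1 lies on the same chromosome at 94038305 to 94052553. Tigit (43626137 to 43665125) and Cd96 (46035652 to 46120248) share chromosome 16, Lag3 lies on chromosome 6 (124904359 to 124912434) and Havcr2 on chromosome 11 (46454931 to 46481255). The span of Tigit overlaps that of Zbtb20, which is also in the table, so the values of Tigit could share reads with it, and that of Cd96 overlaps Gm50487. The promoters of the 4 receptors whose level differed between fat and spleen in both genotypes are shown because that difference is the broadest pattern in the data; each is the 250 bases before the start used by the RefSeq promoter table, in which 5 of the 8 receptors had an entry, read 5′ to 3′ on the gene's strand. For Ctla4, Pdcd1 and Cd96 that start is the outer end of the gene span given above. For Tigit it is position 43664184, which lies 941 bases inside the span, so the Tigit window is within the annotated gene. Capitals mark the matches to the motifs searched.
Ctla4 (chr1:60908775-60909024, + strand): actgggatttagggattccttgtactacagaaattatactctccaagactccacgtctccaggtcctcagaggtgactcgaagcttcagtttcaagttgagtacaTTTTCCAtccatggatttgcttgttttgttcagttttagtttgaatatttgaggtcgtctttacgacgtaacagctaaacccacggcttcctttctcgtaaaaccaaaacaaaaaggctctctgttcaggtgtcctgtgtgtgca
Pdcd1 (chr1:94052554-94052803, - strand): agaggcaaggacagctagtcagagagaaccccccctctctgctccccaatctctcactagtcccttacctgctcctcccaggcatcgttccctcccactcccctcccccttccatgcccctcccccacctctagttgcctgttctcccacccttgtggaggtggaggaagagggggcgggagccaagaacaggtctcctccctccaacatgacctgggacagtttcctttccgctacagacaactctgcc
Tigit (chr16:43664185-43664434, - strand): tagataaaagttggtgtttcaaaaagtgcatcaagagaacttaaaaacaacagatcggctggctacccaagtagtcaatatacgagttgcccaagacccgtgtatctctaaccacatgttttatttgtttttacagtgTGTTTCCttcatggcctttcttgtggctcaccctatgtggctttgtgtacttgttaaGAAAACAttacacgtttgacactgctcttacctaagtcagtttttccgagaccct
Cd96 (chr16:46120249-46120498, - strand): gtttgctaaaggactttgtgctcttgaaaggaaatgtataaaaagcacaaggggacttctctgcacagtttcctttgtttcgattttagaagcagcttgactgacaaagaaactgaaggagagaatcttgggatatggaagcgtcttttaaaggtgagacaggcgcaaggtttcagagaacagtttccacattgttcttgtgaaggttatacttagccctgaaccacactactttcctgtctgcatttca

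The motifs were searched on both strands: TCACNCCAC, the core of the sterol regulatory element to which SREBP2 binds, CTTTGAT for Tcf and Lef factors, TGTTTNC for forkhead factors such as Foxp3, TGGAAAA for NFAT, and TGANTCA for AP-1. The sterol core was in 0 of these windows and in 1.1% of the 32851 promoters of the table, and the Tcf and AP-1 motifs, which 3.2% and 6.7% hold, were in 0 as well. The Ctla4 window held 1 NFAT core, which 5.9% of all promoters hold, and the Tigit window, within the gene span, held 2 forkhead cores, present in 17.8%. The windows of Pdcd1 and Cd96 held no match. A match here is a string of letters and not a shown site.

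Markers of the sorted cells were read first. The 6 T cell and Treg markers Cd3e, Cd3d, Cd4, Foxp3, Il2ra and Ikzf2 were all present. They summed to 600.1 to 657 RPKM (reads relative to gene length and sequencing depth) in VAT KO and 599 to 644 in VAT WT. In spleen the sums were 683 to 690 in KO and 693 to 811 in WT. Most of each sum came from Cd3e, Cd3d and Cd4, so the sums say little of Treg identity. Foxp3 stood at 13.3 to 16.4 RPKM in VAT KO and 14.6 to 15.6 in VAT WT. In spleen it stood at 7.82 to 8.87 in KO and 6.97 to 8.69 in WT. At a limma adjusted p under 0.05, 2 of the 6 were higher and 2 lower in VAT WT than in spleen WT. In VAT KO against spleen KO, 1 was higher and 2 lower. Over all tested genes limma called 26.1% and 14.6%, in that order. Srebf2, the targeted gene, averaged 0.697 ± 0.490 RPKM in VAT KO Tregs against 20.9 ± 8.35 in VAT WT (SD, n = 3 each), and 2.09 ± 0.705 in spleen KO against 16.9 ± 8.97 in spleen WT (n = 2 each). Its log2 change passed in VAT (-3.67, limma adjusted p = 0.00081) and did not in spleen (-2.45, adjusted p = 0.24), where no KO library overlapped WT. Spleen WT replicates 2 and 3 were less alike than replicates elsewhere (correlation across genes 0.932, against 0.968 to 0.974 in the other groups). Read depth is unknown, and whether the replicates are different mice is not labelled, so p-values reflect how far these samples spread, and that spread may be technical. In bulk RNA, fewer cells carrying a transcript and less of it per cell cannot be told apart.

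The receptors fell into abundant and scarce transcripts, on the RPKM scale that corrects for gene length. In VAT KO the order of mean levels was Ctla4 (315), Pdcd1 (275), Tigit (119), Icos (76.2), Cd28 (71.4), Cd96 (43.4), Lag3 (1.39) and Havcr2 (1.24). In VAT WT the order was the same, with Ctla4 at 342 and Cd96 at 16.1 RPKM. In spleen KO, Cd96 led alone at 150.2 RPKM, ahead of Ctla4 (104), Pdcd1 (96.6), Icos (57.2), Cd28 (55.7), Tigit (42.3), Lag3 (2.10) and Havcr2 (0.388). In spleen WT, Pdcd1 (141) and Cd96 (139) led and overlapped, ahead of Ctla4 (100.1), Tigit (66.3) and Icos (64.1), Cd28 (48.8), Lag3 (5.48) and Havcr2 (1.18). Neighbours in these orders that overlapped were Icos and Cd28 in both KO groups, Lag3 and Havcr2 in both VAT groups, Ctla4 and Pdcd1 in VAT WT, and Tigit and Icos in spleen WT. Ctla4 ranked 47 in VAT KO and 42 in VAT WT among the 10992 genes, against 251 in spleen KO and 296 in spleen WT.

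**Figure D1:**
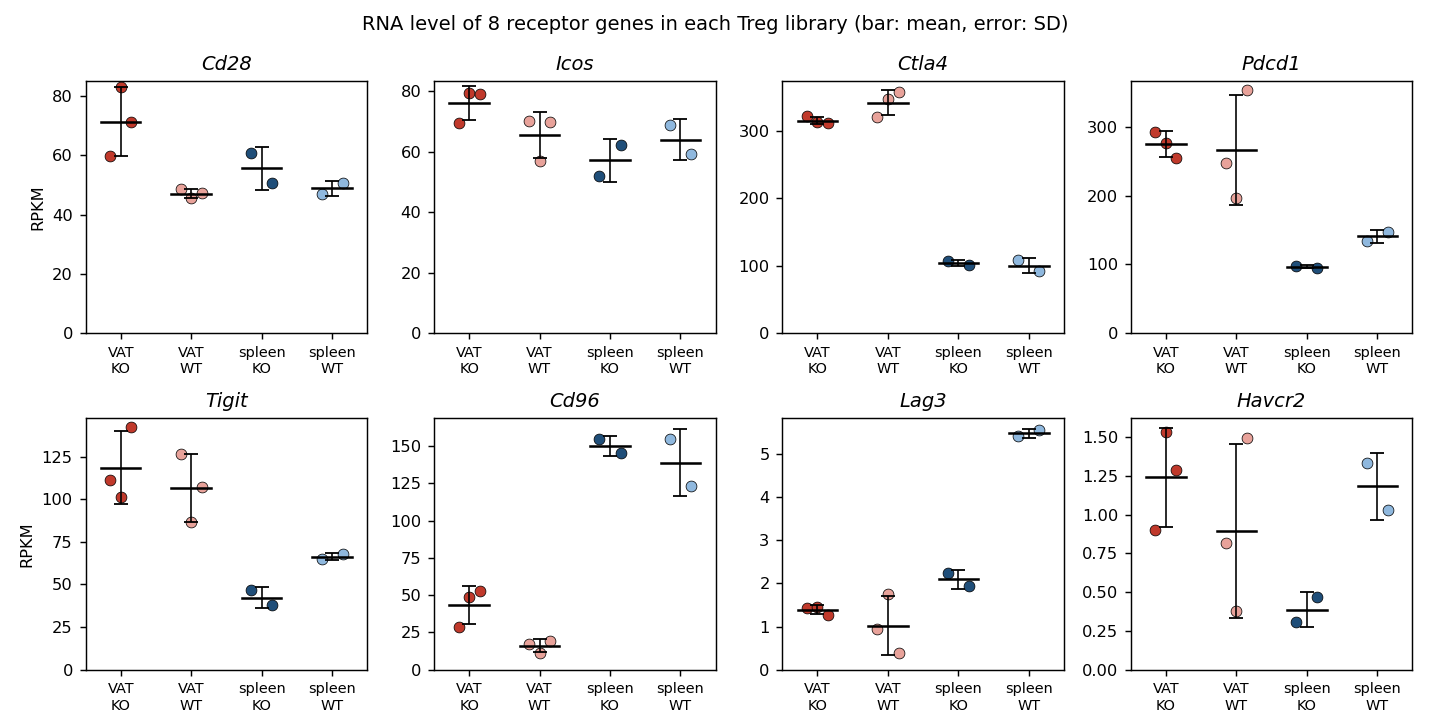
RPKM of the 8 receptor genes in each library, by group, each panel on its own axis from 0; points are libraries, long bars are means and error bars SDs (n = 3 per VAT group, 2 per spleen group). Ctla4, Pdcd1 and Tigit stand higher in VAT libraries, Cd96 stands lower there and higher in VAT KO than in VAT WT, and Lag3 and Havcr2 are low throughout.

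Fat and spleen were compared within each genotype. Ctla4, Pdcd1 and Tigit were higher and Cd96 lower in VAT than in spleen Tregs, in KO and in WT. Lag3 was lower in VAT in WT and did not pass in KO, and that difference between the genotypes itself did not pass (interaction, limma adjusted p = 0.56). Among the 8 receptors, 3 rose and 1 fell in VAT KO against spleen KO, where limma called 14.6% of all tested genes (7.65% higher, 6.94% lower; adjusted p under 0.05), and 3 rose and 2 fell in VAT WT against spleen WT, where it called 26.1% (10.7% higher, 15.4% lower). The groups did not overlap for 7 of 8 receptors in KO (50.4% of all genes) and for 5 of 8 in WT (49.1%). The median log2 change was 0.55 in KO and -0.01 in WT, beside -0.09 and -0.12 over all tested genes.

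Ctla4 was higher in VAT in both genotypes. It stood at 321, 313 and 311 RPKM in VAT KO Tregs against 107 and 100.4 in spleen KO, and at 321, 347 and 357 in VAT WT against 108 and 92.2 in spleen WT. Every VAT library was thus above every spleen library. On the log2(RPKM + 1) scale, which is used for all changes here and understates those of scarce genes, the difference was 1.59 ± 0.12 (SE) in KO (limma adjusted p = 2.1e-06) and 1.76 ± 0.12 in WT (adjusted p = 6.0e-07), or 3.02-fold in KO and 3.40-fold in WT.

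Pdcd1 stood at 294, 277 and 255 RPKM in VAT KO Tregs against 98.2 and 95.02 in spleen KO. In WT it stood at 248, 197 and 354 RPKM in VAT against 134 and 148 in spleen. The groups did not overlap in either genotype, and the VAT WT libraries varied most. The log2 difference was 1.4998 ± 0.20 in KO (limma adjusted p = 0.00021) and 0.87 ± 0.20 in WT (adjusted p = 0.0063).

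Tigit, the inhibitory nectin receptor, stood at 112, 102 and 142 RPKM in VAT KO Tregs against 46.6 and 38.1 in spleen KO. In WT it stood at 126, 86.4 and 107 RPKM in VAT against 64.7 and 68.0 in spleen. VAT libraries were above spleen libraries in both genotypes, by 1.46 ± 0.19 log2 units in KO (limma adjusted p = 0.00018) and 0.66 ± 0.19 in WT (adjusted p = 0.021). The WT difference did not pass without spleen WT replicate 2 (adjusted p = 0.0779), nor without replicate 1 (0.0793) or replicate 3 (0.0578) of VAT WT, nor when only the compared groups were fitted (0.0537).

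Cd96, which shares ligands with TIGIT, ran the other way. It stood at 28.7, 48.6 and 52.8 RPKM in VAT KO Tregs against 155 and 146 in spleen KO, and at 17.6, 11.3 and 19.4 in VAT WT against 155 and 123 in spleen WT. All VAT libraries were below all spleen libraries. The log2 difference was -1.82 ± 0.26 in KO (limma adjusted p = 0.00045) and -3.06 ± 0.26 in WT (adjusted p = 3.2e-06), the widest tissue difference among the 8 receptors in each genotype.

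Lag3 was scarce, at 1.44, 1.47 and 1.27 RPKM in VAT KO Tregs against 2.25 and 1.94 in spleen KO. In WT it stood at 0.945, 1.75 and 0.382 RPKM in VAT against 5.41 and 5.55 in spleen. Spleen libraries were above VAT libraries in both genotypes, with the wider gap in WT. The log2 difference passed in WT (-1.73 ± 0.27, limma adjusted p = 0.00057) and did not in KO (-0.37 ± 0.27, adjusted p = 0.42; 95% interval -0.96 to 0.22).

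Neither costimulatory receptor passed between the tissues. Cd28 differed by 0.35 ± 0.16 log2 units between VAT KO and spleen KO (limma adjusted p = 0.17; 95% interval 0.003 to 0.69) and by -0.05 ± 0.16 between VAT WT and spleen WT (adjusted p = 0.84; -0.39 to 0.29). Icos differed by 0.41 ± 0.15 in KO (adjusted p = 0.096; 0.08 to 0.74) and by 0.03 ± 0.15 in WT (adjusted p = 0.90; -0.30 to 0.36). In KO the Icos difference passed after quantile normalization (0.48, adjusted p = 0.0345), when only the compared groups were fitted (0.41, 0.0389), and without either spleen WT library (0.41, 0.0448 each). Havcr2, at 0.902, 1.54 and 1.29 RPKM in VAT KO Tregs against 0.31 and 0.466 in spleen KO, did not pass (0.68 ± 0.28, adjusted p = 0.12), nor did it in WT (-0.24 ± 0.28, adjusted p = 0.55).

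Within a library, the ratio of Ctla4 to Cd28, whose products share their ligands, put these levels side by side. It was 5.38, 3.75 and 4.36 in VAT KO and 6.62, 7.63 and 7.56 in VAT WT. In spleen it was 1.76 and 1.99 in KO and 2.29 and 1.82 in WT. The ratio was higher in every VAT library than in every spleen library, and lower in every VAT KO than in every VAT WT library. The ratio of Tigit to Cd96 was 3.89, 2.09 and 2.70 in VAT KO and 7.18, 7.64 and 5.51 in VAT WT, against 0.301 and 0.262 in spleen KO and 0.418 and 0.552 in spleen WT. Thus Tigit transcripts exceeded those of Cd96 in each VAT library, and Cd96 exceeded Tigit in each spleen library. These ratios are a description and were not tested.

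**Figure D2:**
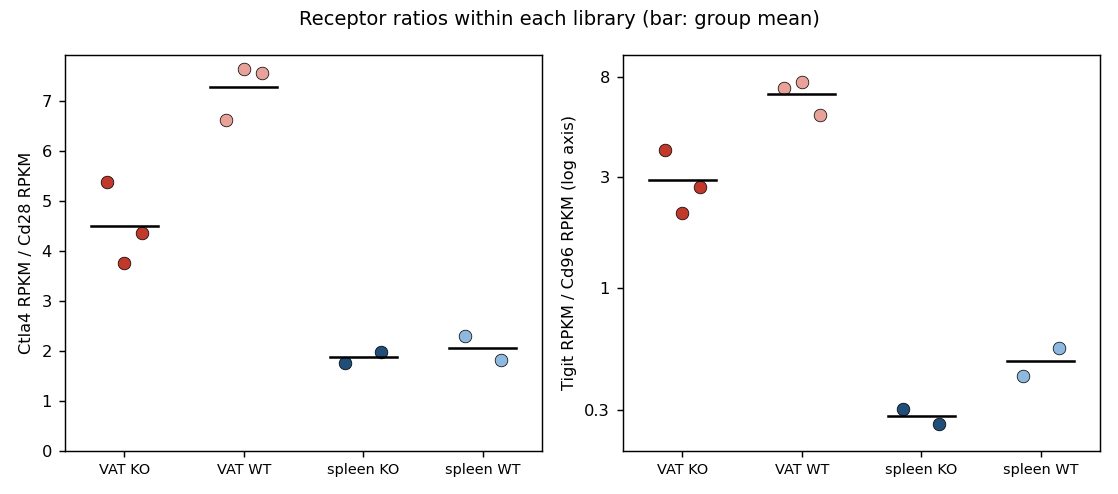
Ratio of Ctla4 to Cd28 RPKM (left, linear axis from 0) and of Tigit to Cd96 RPKM (right, log axis) in each library, by group; bars are group means. Ctla4 to Cd28 lies at 3.75 to 5.38 in VAT KO and 6.62 to 7.63 in VAT WT, and Tigit to Cd96 lies above 1 in the VAT libraries and below 1 in the spleen libraries.

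Markers of other cells bear on transcripts that such cells also carry. Of 7 markers of NK, CD8 and gamma-delta T cells, types that also express Cd96, the table held Cd8a and Cd8b1. They summed to 7.88 to 11.6 RPKM in VAT KO and 4.93 to 18.4 in VAT WT. In spleen the sums were 14.4 to 19.5 in KO and 11.1 to 20.0 in WT. Cd8b1 made up most of each sum. Cd8a stood at 0.251 to 0.77 RPKM in VAT KO and 0.034 to 1.335 in VAT WT. In spleen Cd8a stood at 0.526 to 0.835 in KO and 0.371 to 1.985 in WT. Of 12 myeloid markers the table held Csf1r, Adgre1, Fcer1g and Ctss, which summed to 20.2 to 45.6 RPKM in VAT KO, 12.3 to 15.2 in VAT WT, 183 to 186 in spleen KO and 179 to 240.5 in spleen WT. Most of each sum was Ctss, a protease; Csf1r, the receptor that defines macrophages, stood at 0.117 to 0.144 RPKM in VAT KO and 0.034 to 0.087 in VAT WT, and at 0.116 to 0.76 in spleen KO and 0.485 to 0.828 in spleen WT. No marker of these lists that was in the table stood at 0 in any library. The listed markers absent from the table have no value here. The 5 B cell genes in the table summed to 24.1 to 50.004 RPKM in VAT KO and 27.7 to 101 in VAT WT, and to 35.3 to 46.5 in spleen KO and 29.9 to 43.2 in spleen WT. For stroma, adipocytes and endothelium the table held 2 genes, Pecam1 and Lipe. They summed to 11.8 to 14.4 in VAT KO and 6.75 to 9.42 in VAT WT. In spleen their sums were 21.6 to 38.3 in KO and 18.9 to 34.8 in WT. The follicular and exhausted T cell genes Cxcr5, Bcl6 and Tox, which Tregs can also express, summed to 19.6 to 22.6 in VAT KO and 15.3 to 22.5 in VAT WT, and to 34.1 to 36.1 in spleen KO and 35.6 to 52.1 in spleen WT. The part of these cells in the receptor differences was not tested.

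The effect of deleting Srebf2 in adipose Tregs was read from VAT KO against VAT WT. Of the 8 receptors, Cd96 alone rose and 0 fell, where limma called 0.422% of all tested genes (0.307% higher, 0.115% lower). Cd96 stood at 28.7, 48.6 and 52.8 RPKM in VAT KO Tregs against 17.6, 11.3 and 19.4 in VAT WT Tregs, so that the groups did not overlap and KO replicate 1 lay nearest to WT. The means were 43.4 ± 12.9 and 16.1 ± 4.27 RPKM (SD, n = 3 each), a log2 change of 1.36 ± 0.23 (limma adjusted p = 0.030). The VAT KO mean remained far below the 150.2 ± 6.53 RPKM of spleen KO. The myeloid and stromal sums given above were also higher in VAT KO than in VAT WT without overlap. Ctss, the main part of the myeloid sum, stood at 19.8, 44.9 and 41.3 RPKM in VAT KO Tregs against 12.9, 13.9 and 11.8 in VAT WT Tregs (1.31 ± 0.25, limma adjusted p = 0.045), with KO replicate 1 again the lowest of its group. The myeloid markers Adgre1 and Fcer1g and the CD8 sum overlapped between VAT KO and VAT WT. Csf1r was higher in VAT KO without overlap, at 0.144 RPKM or less. The part of such cells in the Cd96 change was not tested.

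The rise of Cd96 kept its direction in every alternative tried, at 1.14 to 1.63, but its adjusted p lay between 0.0094 and 0.20. Of the VAT KO libraries, it did not pass when replicate 2 (1.26, limma adjusted p = 0.203) or replicate 3 (1.20, 0.184) was omitted. Of the VAT WT libraries, it did not pass when replicate 1 (1.44, 0.0957) or replicate 2 (1.14, 0.0865) was omitted. It also did not pass without spleen KO replicate 2 (0.0639) or replicate 3 (0.0634), which alter only the shared spread.

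**Figure D3:**
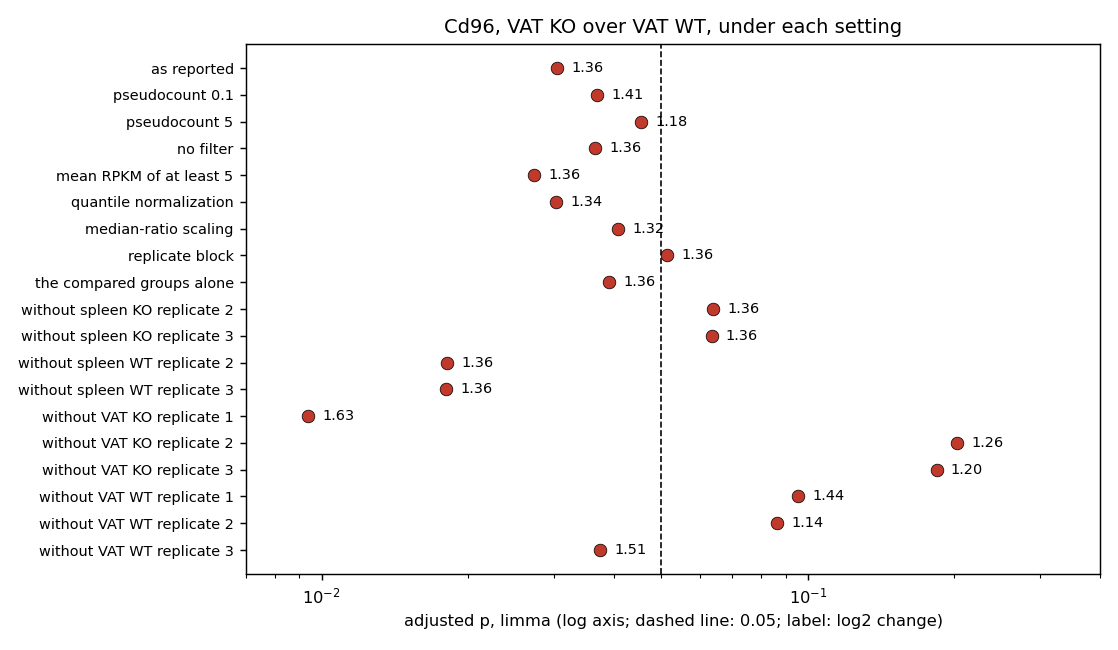
Adjusted p (limma, log axis) of Cd96 in VAT KO over VAT WT under each setting, with the log2 change beside each point and a dashed line at 0.05. The change stays between 1.14 and 1.63, while the adjusted p passes the threshold in 11 of the 18 alternatives.

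Cd28 was the other receptor with groups apart, at 59.7, 83.2 and 71.4 RPKM in VAT KO Tregs against 48.5, 45.5 and 47.3 in VAT WT Tregs. Each KO library lay above each WT library, and the WT libraries were close together. The log2 change was 0.58 ± 0.14 (95% interval 0.27 to 0.89), with a limma adjusted p of 0.16 and of 0.0729 to 0.733 over the alternatives, so it did not pass. Groups did not overlap for 2 of 8 receptors, beside 15.1% of all genes.

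For the other 6 receptors VAT KO and VAT WT overlapped. The 95% intervals of the log2 change were -0.35 to 0.12 for Ctla4, -0.29 to 0.47 for Pdcd1, -0.21 to 0.52 for Tigit and -0.08 to 0.51 for Icos. For the scarce transcripts they were wider, -0.23 to 0.83 for Lag3 and -0.26 to 0.81 for Havcr2, which stood at 0.816, 0.381 and 1.49 RPKM in VAT WT. Icos itself stood at 69.6, 79.6 and 79.3 RPKM in VAT KO Tregs against 70.3, 56.9 and 69.8 in VAT WT Tregs. The median log2 change of the 8 receptors was 0.24, beside 0.02 over all tested genes.

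The same deletion was read in spleen from spleen KO against spleen WT. Limma called 0 of the 8 receptors in spleen KO against spleen WT, and 0% of all tested genes; at an unadjusted p under 0.05 there were 3 receptors, all lower, and 873 genes (8.37%; 4.48% lower). Lag3 stood at 2.25 and 1.94 RPKM in spleen KO against 5.41 and 5.55 in spleen WT, a log2 change of -1.07 ± 0.30 (95% interval -1.72 to -0.42; limma adjusted p = 0.55). Tigit stood at 46.6 and 38.1 RPKM in KO against 64.7 and 68.0 in WT (-0.64 ± 0.20; -1.09 to -0.20; adjusted p = 0.58). Pdcd1 stood at 98.2 and 95.02 in KO against 134 and 148 in WT (-0.54 ± 0.22; -1.01 to -0.07; adjusted p = 0.59).

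Havcr2 stood at 0.31 and 0.466 RPKM in spleen KO against 1.33 and 1.03 in spleen WT (-0.65 ± 0.30; -1.31 to 0.004; limma adjusted p = 0.60). The groups of these 4 receptors did not overlap, and neither did those of Cd28, which was higher in KO (60.9 and 50.6 against 47.1 and 50.5 RPKM) by 0.18 ± 0.17 (adjusted p = 0.74). That made 5 of 8 receptors, beside 32.6% of all genes for which groups of 2 and 2 did not overlap. Ctla4 (0.06 ± 0.14), Cd96 (0.12 ± 0.29) and Icos (-0.16 ± 0.17) overlapped between the genotypes in spleen. The myeloid sum lay at 183 to 186 RPKM in spleen KO and 179 to 240.5 in spleen WT, and the larger value belonged to replicate 2.

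**Figure D4:**
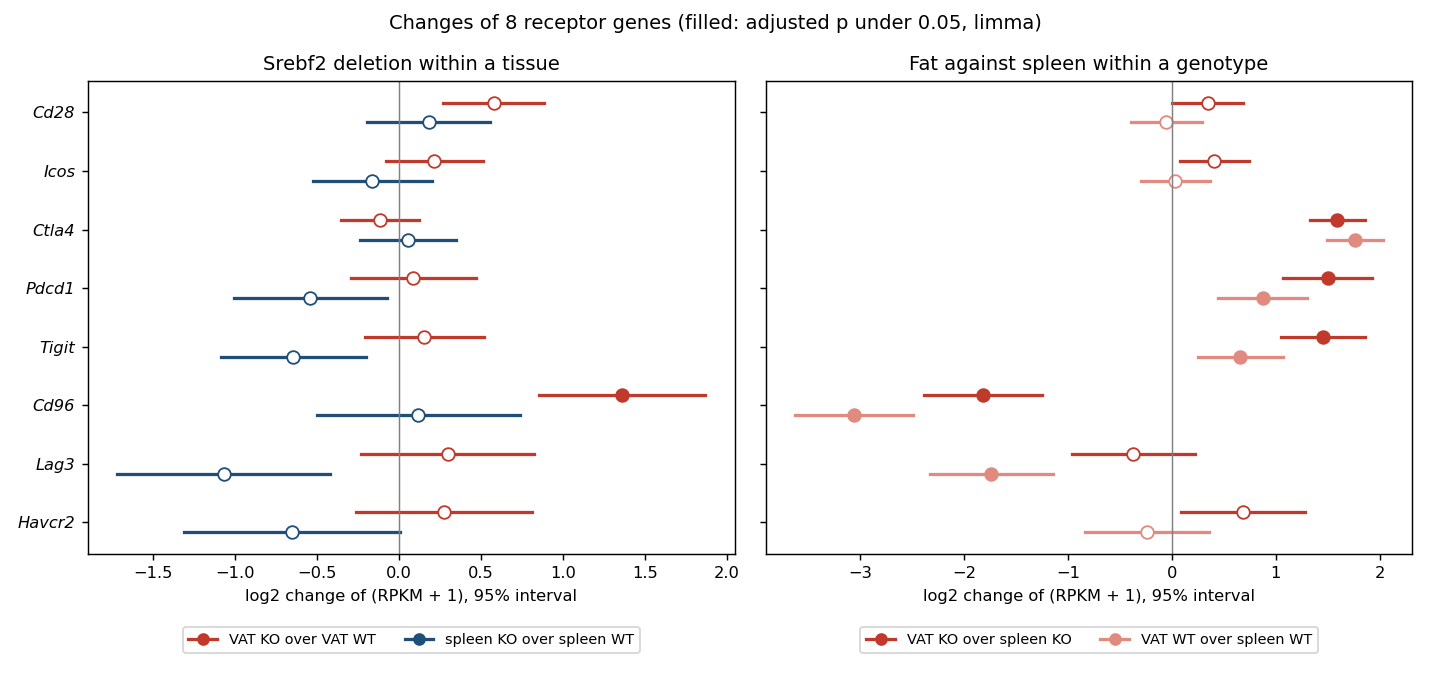
Log2 change of (RPKM + 1) of each receptor with its 95% interval, for KO over WT within VAT and within spleen (left) and for VAT over spleen within KO and within WT (right); filled points have a limma adjusted p under 0.05. Cd96 is filled on the left in VAT at 1.36, and on the right Ctla4, Pdcd1 and Tigit lie above 0 and Cd96 below 0 in both genotypes.

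Whether the deletion acted differently in fat and spleen was tested as the interaction of genotype and tissue. Limma called 0 of 8 receptors and 0% of all tested genes. At an unadjusted p under 0.05 there were 5 receptors, all with the more positive change in VAT, and 738 genes (7.08%; 4.3% with the positive sign). They were Lag3 (1.36 ± 0.39, adjusted p = 0.56), Cd96 (1.24 ± 0.37, 0.59), Tigit (0.80 ± 0.26, 0.62), Havcr2 (0.92 ± 0.39, 0.69) and Pdcd1 (0.63 ± 0.28, 0.70). All of these comparisons draw on the same 10 libraries, so a low or high group enters several of them. With 0 receptors called, a difference between tissues in the effect of the deletion was not shown for any receptor. Averaged over both tissues, KO against WT gave 0 called receptors, where limma called 0.0767% of all genes; 2 receptors and 901 genes (8.64%) had an unadjusted p under 0.05. These 2 were Cd96 at 0.74 ± 0.18 (adjusted p = 0.27) and Cd28 at 0.38 ± 0.11 (adjusted p = 0.40).

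Ligands and partners of the receptors came from 5 lists that named 84 genes in all (Foxp3 and Tcf7 among them). Of these, 77 were in the table and 75 were tested. The lists, like the receptors, were chosen with earlier results of these data known, so their counts beside all genes are a description. In VAT KO against VAT WT, 2 of the 75 rose and 0 fell, where 0.307% of all tested genes rose and 0.115% fell. One was Trat1, a transmembrane adaptor of the T cell receptor that also aids the transport of CTLA-4 to the cell surface, at 5.78, 8.17 and 11.4 RPKM in VAT KO Tregs against 1.69, 1.55 and 3.45 in VAT WT Tregs (1.55 ± 0.28, limma adjusted p = 0.037). The other was Tcf7, the transcription factor of resting and memory-like T cells, at 46.6, 82.5 and 82.3 RPKM in VAT KO Tregs against 25.6, 19.8 and 22.5 in VAT WT Tregs (1.56 ± 0.22, adjusted p = 0.011). For neither gene did the groups overlap. Trat1 passed in 11 and Tcf7 in 15 of 18 alternatives. At an unadjusted p under 0.05 there were 12 of the 75 in VAT KO against VAT WT (9 higher, 3 lower), beside 767 of all 10429 tested genes (7.35%). In spleen KO against spleen WT limma called 0 of the 75, beside 0% of all tested genes. There, 2 of the 75 had an unadjusted p under 0.05, beside 8.37% of all tested genes.

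Between the tissues, 11 of the 75 rose and 16 fell in VAT KO against spleen KO, where 7.65% of all tested genes rose and 6.94% fell. In VAT WT against spleen WT 14 rose and 17 fell, where 10.7% of all tested genes rose and 15.4% fell. These shares are the background for the counts of each list that follow. Among 13 other receptors of the same kinds, 3 rose and 5 fell in each genotype, with a median change of -0.20 in KO and -0.26 in WT. Klrg1, an inhibitory receptor of terminally differentiated lymphocytes, rose in VAT in both genotypes and was at 602.6 ± 73.7 RPKM in VAT KO Tregs against 31.8 ± 13.5 in spleen KO and at 883 ± 66.9 in VAT WT against 36.1 ± 10.1 in spleen WT (SD; n = 3 for VAT, 2 for spleen). Cd200r1, an inhibitory receptor for CD200, rose too, by 2.88 in KO and 3.01 in WT, and Btla, which binds the TNF receptor HVEM, fell by 1.47 in KO and by 2.25 in WT. Cd226, the activating competitor of TIGIT and CD96, stood at 24.7, 23.8 and 23.1 RPKM in VAT KO Tregs against 8.97 and 11.4 in spleen KO, and at 18.5, 23.2 and 19.5 in VAT WT against 8.50 and 8.12 in spleen WT. It rose by 1.16 ± 0.17 in KO (limma adjusted p = 0.00046) and 1.20 ± 0.17 in WT (adjusted p = 0.00024), the same direction as Tigit and opposite to Cd96. In VAT KO against VAT WT, limma called 0 of these 13 (5 at an unadjusted p under 0.05, against 7.35% of all genes), with Btla at 0.78 (adjusted p = 0.083), Cd200r1 at -0.49 (0.21) and Cd200 at 0.71 (0.32).

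Of 9 tested ligands, 1 rose and 1 fell in VAT KO against spleen KO, and 2 rose and 1 fell in VAT WT against spleen WT. Lgals3, a galectin that binds LAG-3 among other glycoproteins, was at 89.2, 86.6 and 83.2 RPKM in VAT KO Tregs against 3.16 and 6.38 in spleen KO and at 166, 138 and 130 in VAT WT against 1.89 and 4.01 in spleen WT. The VAT KO values were below all VAT WT values, and that change (-0.73) had an adjusted p of 0.36. Cd86, the ligand of CD28 and CTLA-4 that activated T cells as well as presenting cells can carry, fell in VAT, to 4.98 ± 2.52 RPKM in VAT KO Tregs against 21.5 ± 3.14 in spleen KO and to 3.55 ± 3.51 in VAT WT against 21.3 ± 2.69 in spleen WT (SD; adjusted p = 0.012 and 0.0016). Icosl rose in VAT WT against spleen WT (1.02, adjusted p = 0.019). Limma called 0 ligands in VAT KO against VAT WT (1, Lgals3, at an unadjusted p under 0.05, against 7.35% of all genes), where Cd86 stood at 0.58 (adjusted p = 0.94) and Lgals9 at -0.15 (0.97).

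Of 22 genes listed as signalling partners, 0 rose and 5 fell in VAT KO against spleen KO. In VAT WT against spleen WT, 3 rose and 5 fell. The list includes Pdk1, a pyruvate dehydrogenase kinase and not a receptor partner, which passed in neither comparison. Ptpn6, the phosphatase SHP-1, fell to 32.7 ± 4.34 RPKM in VAT KO Tregs against 87.1 ± 10.7 in spleen KO and to 20.3 ± 1.79 in VAT WT against 70.9 ± 23.0 in spleen WT (limma adjusted p = 0.00043 and 5.0e-05). Pik3ip1, an inhibitor of PI3 kinase, fell by 1.44 in KO and by 1.49 in WT, and Lck, the kinase next to CD4, fell by 0.46 and by 0.75. In VAT KO against VAT WT limma called 0 of the 22 (3 at an unadjusted p under 0.05, against 7.35% of all genes), and Ptpn6 stood at 0.65 (adjusted p = 0.25), Pik3ip1 at 0.45 (0.48) and Prkcq, a kinase downstream of CD28, at 0.48 (0.51). Of 15 genes of traffic, shedding and mRNA control, Zc3h12a, an RNase that degrades Icos and Ctla4 transcripts, rose in VAT by 1.95 in KO and 1.60 in WT, and Trat1 fell by 1.33 in KO and by 2.57 in WT. Adam17, a protease that sheds LAG-3, did not pass in WT (-0.42, adjusted p = 0.088), and in VAT KO against VAT WT neither did Rc3h1, a repressor of Icos mRNA (0.35, 0.96), nor Rab11a (-0.21, 0.97).

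Of 16 transcription factors, 6 rose and 4 fell in VAT KO against spleen KO, and 5 rose and 5 fell in VAT WT against spleen WT. Nr4a1, induced by the T cell receptor, rose in VAT in both genotypes and was at 607 ± 31.6 RPKM in VAT KO Tregs against 27.5 ± 5.76 in spleen KO and at 700.5 ± 111 in VAT WT against 22.7 ± 10.8 in spleen WT. Tcf7 fell by 1.65 in KO and by 2.92 in WT, and Id3, an inhibitor of E proteins, fell by 3.46 and by 4.19. In VAT KO against VAT WT, Foxo1 stood at 0.40 (limma adjusted p = 0.56) and Bach2 at 0.41 (0.84).

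Likeness of profiles was measured over the 10 libraries as the root mean square distance between log2(RPKM + 1) profiles, each centred on its own mean; it is a description dominated by tissue. For Cd96 the nearest of 6627 genes averaging 5 RPKM or more were Slamf6, a receptor of the SLAM family (0.173 log2 units), Cd9, a tetraspanin (0.266), and Tcf7 (0.277). In VAT KO, Slamf6 stood at 10.1, 16.3 and 16.8 RPKM, against 6.31, 4.12 and 5.71 in VAT WT; it stood at 42.9 and 42.5 in spleen KO against 46.7 and 38.5 in spleen WT. As with Cd96, VAT KO replicate 1 was the lowest KO library for each of the 3 genes. These genes were picked for nearness to Cd96 over the same libraries, so this likeness is partly built in by the choice. For Ctla4 the nearest were Tmem64 (0.119), Mfge8 (0.134) and Sgms1 (0.140), for Pdcd1 Nrip1 (0.163), Ptpn13 (0.170) and Rrad (0.208), and for Tigit Epcam (0.164), Polg2 (0.204) and Fbxo33 (0.213). Lag3 had no profile as near: Nsmce1 (0.302), Cdca7 (0.309) and Psmb9 (0.318) came closest. Among the receptors themselves, the nearest pairs were Havcr2 and Icos (0.213), Icos and Cd28 (0.243), Pdcd1 and Tigit (0.247), Havcr2 and Cd28 (0.362) and Ctla4 and Pdcd1 (0.374). The group means of Havcr2, Icos and Cd28 spanned only 0.68, 0.41 and 0.58 log2 units. This distance is small between flat profiles whatever their shape, so the pairs of these receptors do not show that they vary together.

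**Figure D5:**
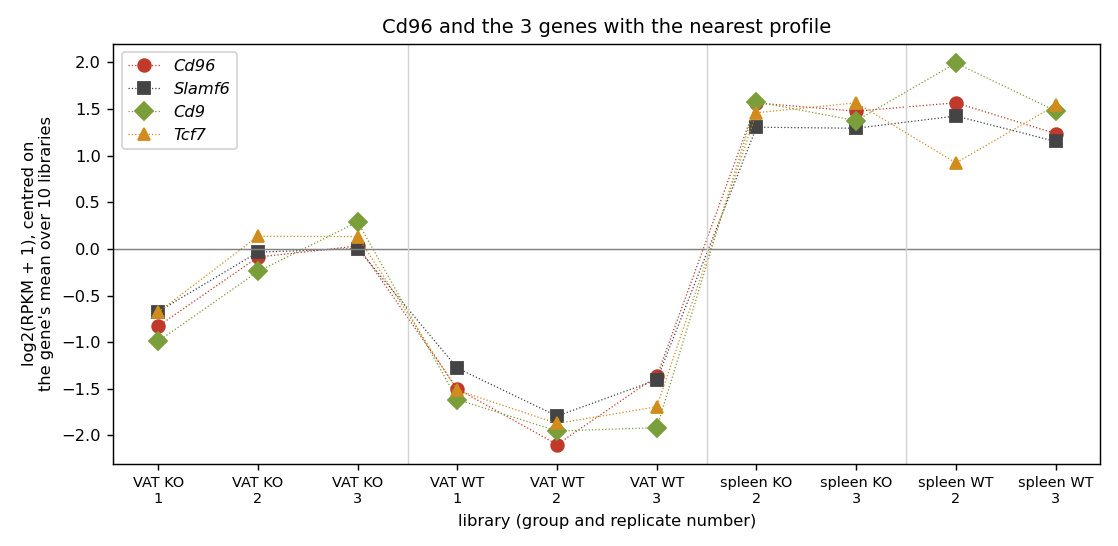
Log2(RPKM + 1) of Cd96, Slamf6, Cd9 and Tcf7 in each of 10 libraries, centred on each gene's mean, with libraries in their groups on the x axis; dotted lines only join points of a gene. The 4 genes are lowest in VAT WT, intermediate in VAT KO with replicate 1 lowest, and highest in spleen. Slamf6, Cd9 and Tcf7 were picked for nearness to Cd96 over these libraries, so the likeness is partly built in.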

How the data were processed

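RNA was measured by bulk RNA sequencing of sorted Tregs. Per the labels' protocols, cDNA came from the SMART-seq v4 kit and libraries from Nextera XT, which does not mark strand; the aligner STAR and the build mm10 are named per the submitters' processing notes. For the counter, gene models, scaling denominator and the filter behind the 10992 genes, neither the labels nor the file header states anything. A table of RPKM values was deposited by the authors, which are not counts; low values showed no steps worth 1 read, so depth cannot be stated and counting error is left out. Of the 11 labelled samples 10 have a matching column; spleen KO replicate 1 was not analysed here, and 1 further column, whose name fits none of the labels, was not used.

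Values were analysed as log2(RPKM + 1), over the 10429 genes with at least 1 RPKM in at least 2 samples. One limma fit (version 3.58.1, R 4.3.3; trend on, robust off, no covariate) covered all 4 groups, with 6 residual degrees of freedom. Tests were two-sided, with Benjamini-Hochberg adjustment over all tested genes of a comparison and a threshold of 0.05. Errors of changes are limma standard errors. The design had assumed all 11 samples. The fit was tested on simulated data. The members and gene lists were chosen with earlier results of these data known. Named were the 8 members, of each list the 3 genes with the smallest p for VAT KO against VAT WT and the 3 for VAT WT against spleen WT, and the 3 nearest profiles of each member whose group means span at least 1 log2 unit; genes named beyond these were chosen after their values were seen. As alternatives, the pseudocount was set to 0.1 or 5, the filter was dropped or replaced by a mean of 5 RPKM, values were quantile normalized or scaled by median ratios, only the compared groups were fitted, a replicate block was added, and single libraries were omitted in turn. Promoters and positions are from RefSeq on GRCm38.p6, which is mm10; 15 symbols turned into dates were restored by Entrez identifier.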

Additional observations from a re-analysis of the deposited data

How the results depend on the processing

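With the replicate number as a block, 0 receptors instead of 1 were called in VAT KO against VAT WT (Cd96, adjusted p = 0.0513). Tigit also missed the threshold under the block in VAT WT against spleen WT (0.61, adjusted p = 0.0613). Same-numbered libraries did not deviate together (correlations across genes of -0.147 to 0.184), so the numbers were not taken as pairing. With each library left out in turn, the number of receptors called was 0 to 1 in VAT KO against VAT WT, 4 to 5 in VAT KO against spleen KO and 4 to 5 in VAT WT against spleen WT, and 0 in spleen KO against spleen WT, in the interaction and in the average over tissues. Leaving out a spleen library leaves 1 sample in its group, which is then assumed to vary like the others. Of 836 recomputed changes of the receptors, 820 kept their side of the threshold, 12 lost and 4 gained a call, and no called change turned its sign. A mean filter of 5 RPKM removed Lag3 and Havcr2, so that 4 receptors were called in VAT WT against spleen WT. Median-ratio scaling moved the median of all genes by 0.135 log2 units in VAT WT against spleen WT, and the same 5 receptors were called there. The compared groups alone could not be fitted for the interaction or the average, which use all groups. Over the whole table, calls in VAT KO against VAT WT numbered 44, and 2 to 60 across the alternatives. They numbered 1522 (746 to 2204) in VAT KO against spleen KO and 2723 (1730 to 3909) in VAT WT against spleen WT. Without spleen WT replicate 3 they numbered 1403 in spleen KO against spleen WT, 521 in the interaction and 771 in the average, against 0, 0 and 8 with it.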
